A study of Mus musculus with 2 samples.

Results

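The 4 R-spondin genes, Rspo1, Rspo2, Rspo3 and Rspo4, were examined in mesenchymal stromal cells (MSC) from grafts of embryonic mouse intestine profiled by single-cell RNA-seq. They were found by symbol and are 4 of the 28692 genes counted in each library. R-spondins are secreted proteins that act on cells already receiving a Wnt signal. They bind Lgr4, Lgr5 or Lgr6 on the target cell and draw the ubiquitin ligases Rnf43 and Znrf3 out of the membrane. Frizzled receptors, which these ligases would otherwise remove, then stay at the surface. In the gut, R-spondins come chiefly from stromal cells near the crypt and maintain the Lgr5+ epithelial stem cells.

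Small intestine (SI) or large intestine (LI) from midgestation EYFP (C57BL/6) embryos, of EYFP males and C57BL/6Nrj females, had been placed beneath the kidney capsule of adult WT mice and recovered 4 weeks later. Live cells that carried Itgb1 and YFP and lacked CD45, Ter119, BP3, CD31, EpCAM and L1CAM were sorted, where YFP marks cells of graft origin. The grafts gave 1 LI library and 1 SI library. The study's methods describe pooling of grafts for the LI library, and pooling of the SI grafts was not stated. Because each region is 1 library, no test between them is possible and all intervals below (95%) cover counting error only. Libraries were made with a 3′ or a 5′ kit, the kit of each library was not stated, and a difference between regions cannot be told apart from one of kit or library.

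The LI library held 11568 barcodes and the SI library 9631. Cells with at least 500 genes and at most 10% mitochondrial unique molecular identifiers (UMIs) were kept, which left 9873 LI cells with 61023220 UMIs (median 5288 per cell) and 7910 SI cells with 51656233 UMIs (median 5682). The libraries shared 26 barcodes. Both mixed cells of male and female embryos by Y-linked genes and Xist, with 889 male and 7967 female cells in LI and 1922 and 4353 in SI.

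Cells were put in 11 stromal classes by their markers. Of the 6 fibroblast (FB) classes, PDGFRAhi FB carry the BMP-rich program of cells beneath the epithelium, CD81 FB the Grem1 and Ackr4 program of cells around the crypt base and submucosa, and Fgfr2 FB the program of interstitial cells. By rule, CD81 FB held a Grem1 UMI and Fgfr2 FB an Adamdec1 UMI. Adventitial-like FB carried Pi16, MHC class II FB carried antigen presentation genes, and FB that met no rule are called other FB. Together they are the FB lineage, with 8031 LI and 5773 SI cells. The further classes were visceral smooth muscle cells (SMC), vascular mural cells, pericytes, interstitial cells of Cajal (ICC) and mesothelial cells. Markers of each class but other FB, which has none, stood among its 10 leading genes in both libraries. In LI the only such marker of CD81 FB was Grem1 and of adventitial-like FB Pi16, the genes that their gates require, so the gate fixed this outcome. SI CD81 FB had 1 marker of their own and 1 of adventitial-like FB among the 10. The 10 leading genes of SI vascular mural cells held 3 pericyte markers and 2 of their own, so both were joined as mural cells wherever regions are compared. Classes cut by marker number are ranges, and 482 of 1266 LI and 409 of 1636 SI CD81 FB, for example, held just the 3 markers required. CD81 FB of the 2 grafts lay in clusters with different leading genes, which were Fmo2 (31.4% of the class), Areg (19.9%) and Myoc (18.2%) in LI and Pcolce2 (35.0%) and Ackr4 (21.5%) in SI.

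Rspo1, Rspo2 and Rspo3 were all present in both grafts, and Rspo4 was close to absent. Over all retained cells, Rspo3 had 6362 UMIs in 2699 LI cells and 6165 UMIs in 2667 SI cells. Rspo1 had 1432 UMIs in 849 LI cells and 753 UMIs in 421 SI cells. Rspo2 had 204 UMIs in 180 LI cells and 1028 UMIs in 749 SI cells. Rspo4 had 1 UMI in LI and 0 in SI, where a count of 0 allows a share of up to 0.0379% of cells with a UMI. Levels are given as pooled CPM, for which the UMIs of a gene in a class were scaled to that class's UMI total.

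In GRCm38 coordinates Rspo1 (ENSMUSG00000028871) spans chr4:124986430-125009099 on the plus strand and Rspo2 (ENSMUSG00000051920) chr15:43020794-43170826 on the minus strand. Rspo3 (ENSMUSG00000019880) spans chr10:29452416-29535867 on the minus strand and Rspo4 (ENSMUSG00000032852), known from inherited absence of nails, chr2:151842927-151874668 on the plus strand. All 4 are protein coding. The annotated gene Gm20276 overlaps Rspo3 on the same strand, and its reads could be shared with Rspo3 in part. Antisense genes overlap Rspo1 (Gm12930), Rspo3 (Gm48159) and Rspo4 (Rspo4os), and Rspo4os had 1 UMI in LI and 4 in SI.

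**Figure D1:**
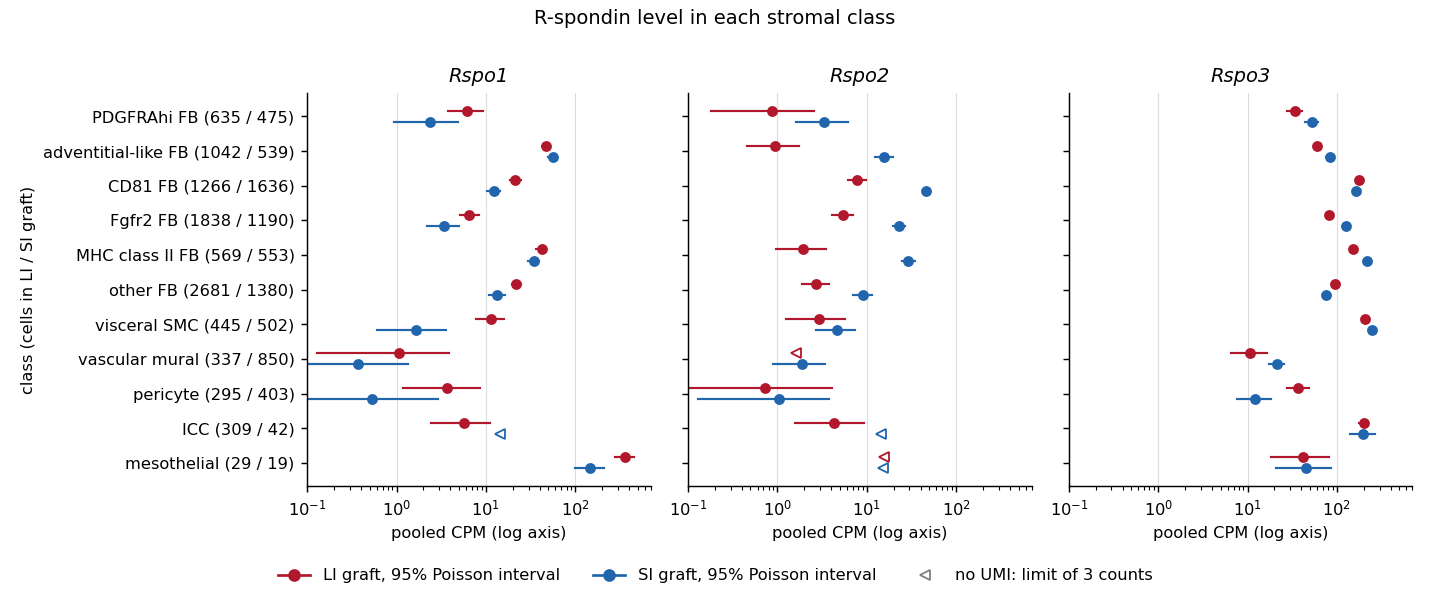
Pooled CPM of Rspo1, Rspo2 and Rspo3 (log axes) in 11 stromal classes of the LI graft (red) and the SI graft (blue), with exact Poisson 95% intervals, and open triangles at the limit of 3 counts where no UMI was found. Rspo1 sits highest in mesothelial cells and adventitial-like FB, Rspo2 highest in SI CD81 FB, and Rspo3 above 100 CPM in visceral SMC, ICC, CD81 FB and MHC class II FB of both grafts.

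Rspo3, a strong potentiator of Wnt signals, was highest in visceral SMC among classes of at least 50 cells and lowest in mural cells. In visceral SMC its level was 209 CPM (192 to 226) in LI and 246 CPM (231 to 263) in SI, with a UMI in 41.1% of 445 cells and 46.4% of 502 cells. ICC, the pacemaker cells of gut muscle, held 199 CPM (176 to 223) in LI and 195 CPM (140 to 264) in 42 SI cells. The LI value rests on few cells, since the 14.9% of ICC in a cluster led by Lcn2, Hand1 and Fst held 652 CPM (558 to 758) and 170 of the 279 UMIs, while the 63.1% in the cluster led by Kit and Prkcq held 108 CPM (86.3 to 134). CD81 FB held 175 CPM in LI and 164 CPM in SI, and MHC class II FB 149.8 CPM and 215 CPM. The order in LI ran from visceral SMC over ICC to CD81 FB, where each neighbour's interval overlapped the next, and then to MHC class II FB, whose interval did not. In SI the order ran from visceral SMC over MHC class II FB and CD81 FB to Fgfr2 FB with no overlap between neighbours. The 285 LI cells left without a class held 253 CPM (214 to 297), above visceral SMC. They include cells that met both the ICC gate and that of SMC or mural cells, beside cells that met none. Their median was 1410 UMIs, and 203 of them held fewer than 2000. With the stricter cell filter LI Rspo3 was highest in ICC, at 249 CPM. With clusters in place of gates it was also highest in clusters named ICC, at 301 CPM, but these joined the Lcn2 cluster at 615 CPM, of which 30.5% were ICC by gate and whose 5 leading genes include no ICC marker, with clusters at 181 CPM and below.

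The lower part of the Rspo3 order was held by the other FB classes and mural cells. Fgfr2 FB held 81.2 CPM in LI and 127 CPM in SI. Adventitial-like FB held 59.4 and 84.3 CPM and other FB 94.6 and 75.6 CPM. PDGFRAhi FB, the BMP source beneath the epithelium, were lowest of the FB classes at 33.6 CPM (27.8 to 40.4) in LI and 52.3 CPM (44.4 to 61.2) in SI. In LI these cells were uneven. The 75.1% of them in the cluster led by Sox6 held 4.05 CPM (1.94 to 7.45), and the 3.78% in the cluster led by Areg held 272 CPM (195 to 370). Mural cells held 21.6 CPM (16.9 to 27.3) in LI and 18.9 CPM (15.9 to 22.4) in SI.

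Free RNA can place a UMI in cells that do not transcribe a gene, so the shares of cells with a UMI are given beside those of mural cells. Mural cells were not a uniform background for Rspo3, since 1.35% of cells held it in the SI cluster led by Higd1b and 25.7% in the SI cluster led by Colec11, and 8 LI pericytes held 3 or more UMIs. In all mural cells, 5.54% of 632 LI cells (median 4488 UMIs) and 6.70% of 1253 SI cells (median 4650) held Rspo3, against 28.7% and 39.4% of FB-lineage cells at medians of 5503 and 5940 UMIs. The share of mural cells with Rspo1 was 0.949% in LI and 0.239% in SI, and with Rspo2 0.158% and 0.798%. In FB-lineage cells 9.81% (LI) and 6.81% (SI) held Rspo1, and 2.05% (LI) and 12.5% (SI) held Rspo2. With each cell thinned to 2000 UMIs, Rspo3 was held by 14.5% of LI and 19.2% of SI FB, Rspo1 by 3.75% and 2.83%, and Rspo2 by 0.747% and 4.37%.

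Cells that carried immune markers despite the sort, 120 in LI and 96 in SI, held Rspo3 at 70.6 and 67.8 CPM and a median of 8 and 8.5 of the 10 fibroblast markers. Visceral SMC, with the highest Rspo3 level, held a median of 7 of these markers in both grafts and LI ICC 6, against 4 in vascular mural cells. The number of these markers did not follow Rspo3 in other classes. SI ICC held 3.5 of them at 195 CPM of Rspo3, and PDGFRAhi FB 9 in both grafts at 33.6 and 52.3 CPM. Kidney tubule cells, 7 in LI and 13 in SI, held no UMI of Rspo1, Rspo2 or Rspo3, with intervals up to 55.5 CPM in LI and 16.1 CPM in SI. The 45 SI epithelial cells, with a median of 1 fibroblast marker, held 9 Rspo3 UMIs (16.8 CPM, 7.69 to 31.9) and 3 Rspo1 UMIs. The 8 LI endothelial cells held 3 Rspo3 UMIs (33.0 CPM, 6.80 to 96.3), and the 9 SI ones held 0. The part of mixed droplets in these values was not tested.

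Rspo1, the member first used to grow intestinal organoids, was highest in mesothelial cells and in adventitial-like FB. Mesothelial cells, the lining of the serosa, held 356 CPM (276 to 451) in LI and 146 CPM (97.9 to 210) in SI, and 18 of 29 LI cells and 12 of 19 SI cells had a UMI. Among classes of at least 50 cells, adventitial-like FB were highest in both grafts, with 46.4 CPM (42.4 to 50.7) in LI and 55.6 CPM (49.1 to 62.8) in SI. MHC class II FB followed with 41.9 CPM in LI and 34.2 CPM in SI. The intervals of these 2 classes overlapped in LI and did not in SI. In male cells alone MHC class II FB were highest in both grafts, at 40.4 CPM in LI and 39.5 CPM in SI.

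The remaining classes held less Rspo1. CD81 FB held 21.3 CPM in LI and 12.3 CPM in SI, and other FB 21.9 and 13.4 CPM. A small part of the cells carried these values. In SI, the 8.37% of CD81 FB in the cluster led by Pi16 held 76 of 140 UMIs (88.4 CPM), against 4.95 CPM in the largest cluster of the class, and the 12.8% of other FB there held 69 of 93. In LI, the 18.2% of CD81 FB in the cluster led by Myoc held 96 of 192 UMIs. Fgfr2 FB held 6.54 and 3.36 CPM and PDGFRAhi FB 6.14 and 2.35 CPM. Mural cells held 2.16 CPM (7 UMIs) and 0.414 CPM (3 UMIs). Visceral SMC held 11.3 CPM in LI and 1.63 CPM in SI. The LI value came from 31 UMIs in 9 cells, of which 1 cell with 40518 UMIs in all held 14, and without that cell it was 6.26 CPM.

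Because mesothelial cells were so high in Rspo1, their markers were compared between Rspo1-positive and Rspo1-negative FB. The 9 markers summed to 96.6 CPM in 788 positive and 33.3 CPM in 7243 negative LI cells, and to 107 and 15.1 CPM in 393 positive and 5380 negative SI cells. Mesothelial cells themselves summed to 6479 CPM in LI and 3772 CPM in SI. Wt1, a transcription factor of mesothelium and of some fibroblasts, made up most of the sum in FB, at 88.7 against 30.8 CPM in LI and 89.3 against 12.8 CPM in SI. Without Wt1 the sums were 7.87 and 2.53 CPM in LI and 17.6 and 2.37 CPM in SI. In Rspo1-positive FB, Lrrn4, Gpm6a and Muc16 were at 0 in LI, and Muc16 was at 0 in SI.

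Rspo2, a strong potentiator like Rspo3, was higher in SI than in LI fibroblasts. CD81 FB were highest in SI with 46.5 CPM (42.6 to 50.6) and a UMI in 22.7% of 1636 cells. MHC class II FB followed with 29.2 CPM (24.6 to 34.3), Fgfr2 FB with 22.8 CPM (19.5 to 26.6), adventitial-like FB with 15.6 CPM and other FB with 9.05 CPM. The interval of CD81 FB lay above all others, and those of MHC class II FB and Fgfr2 FB overlapped. SI visceral SMC held 4.63 CPM and PDGFRAhi FB 3.35 CPM. No cluster was named CD81 FB, so clusters do not bear on the place of this class. The SI cluster with most Rspo2, led by Pcolce2, was named adventitial-like FB from its markers, and 63.6% of its cells were CD81 FB by gate.

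In LI every class was below 8 CPM for Rspo2. CD81 FB held 7.87 CPM (6.15 to 9.92), Fgfr2 FB 5.39 CPM and ICC 4.27 CPM (1.57 to 9.30), and these intervals overlapped. MHC class II FB held 1.94 CPM and adventitial-like FB 0.943 CPM. Mesothelial cells of both grafts, LI vascular mural cells and the 42 SI ICC had no Rspo2 UMI, which at 3 counts allows up to 15.7 CPM in LI and 15.1 CPM in SI mesothelial cells, 1.60 CPM in the mural cells and 14.3 CPM in the ICC.

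**Figure D2:**
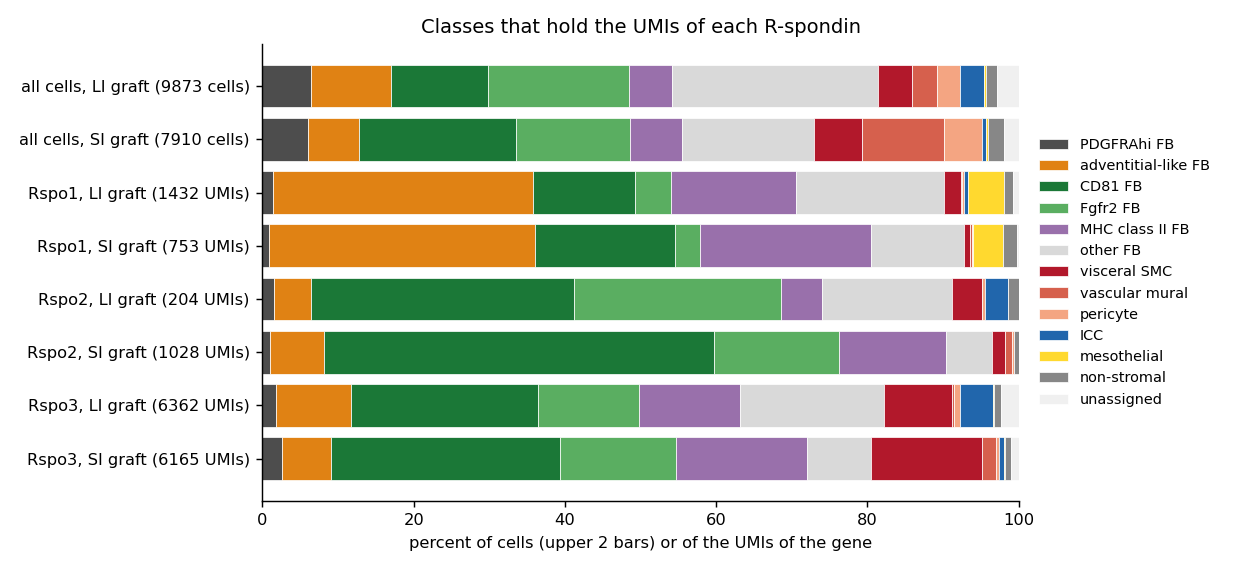
Share of retained cells in each class (upper 2 bars) and share of the UMIs of Rspo1, Rspo2 and Rspo3 from each class, per graft, in percent. Adventitial-like FB give 34.4% (LI) and 35.1% (SI) of Rspo1 UMIs, and CD81 FB give 51.6% of Rspo2 UMIs in SI.

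Classes with few cells could supply a large part of a gene's UMIs. Adventitial-like FB were 10.6% of LI and 6.81% of SI cells and gave 34.4% and 35.1% of the Rspo1 UMIs. Mesothelial cells were 0.294% and 0.240% of cells and gave 4.75% and 3.85% of the Rspo1 UMIs. CD81 FB were 12.8% of LI and 20.7% of SI cells and gave 34.8% and 51.6% of the Rspo2 UMIs and 24.8% and 30.3% of the Rspo3 UMIs. Visceral SMC were 4.51% of LI and 6.35% of SI cells and gave 9.04% and 14.7% of the Rspo3 UMIs. PDGFRAhi FB were 6.43% and 6.01% of cells and gave no more than 2.53% of the UMIs of any R-spondin.

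The LI and SI libraries were then compared. Rspo2 was the R-spondin with the largest difference. In FB-lineage cells it held 3.58 CPM in LI (186 UMIs) and 25.8 CPM in SI (992 UMIs), a log2 ratio of LI over SI (pseudocount 1 CPM) of -2.55 (-2.73 to -2.36). Of the 8630 genes with at least 10 CPM in either library there, 139 were at least 2-fold higher in SI, which is 1.61% of them, and 168 (1.95%) in LI. The median over these genes was -0.01, and 0.116% of them had a lower ratio than Rspo2.

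Rspo2 was higher in SI in 6 of 6 FB classes, by at least 2-fold on this scale, and it reached the 10 CPM minimum of the background in 4 of them. The log2 ratio was -3.36 in MHC class II FB (11 against 145 UMIs), -3.09 in adventitial-like FB (10 against 74, of which 55 came from the 21.7% of SI cells in the Pcolce2 cluster), -2.42 in CD81 FB (71 against 530), -1.90 in Fgfr2 FB (56 against 170) and -1.43 in other FB (35 against 63). In PDGFRAhi FB it was -1.21 from 3 and 10 UMIs, with an interval that reached above 0. MHC class II FB of the grafts lay mainly in clusters with different leading genes, Ctla2a and Fgfbp1 in LI (57.5% of the class, no Rspo2 UMI) and Cd74 and Saa3 in SI (53.0%, 48.4 CPM). The LI cells of this class in the Areg cluster held 10.8 CPM and the SI cells in the Angptl7 cluster 3.62 CPM, with overlapping intervals. The share of genes at least 2-fold higher in SI was 5.95% in MHC class II FB, 2.1% in adventitial-like FB, 1.38% in CD81 FB, 2.12% in Fgfr2 FB, 1.63% in other FB and 3.61% in PDGFRAhi FB, where Rspo2 stayed under 10 CPM in the last 2. In visceral SMC, where 2.68% of genes were at least 2-fold higher in SI, the ratio was -0.53 (-1.53 to 0.49), so a difference was not detectable there at this depth.

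**Figure D3:**
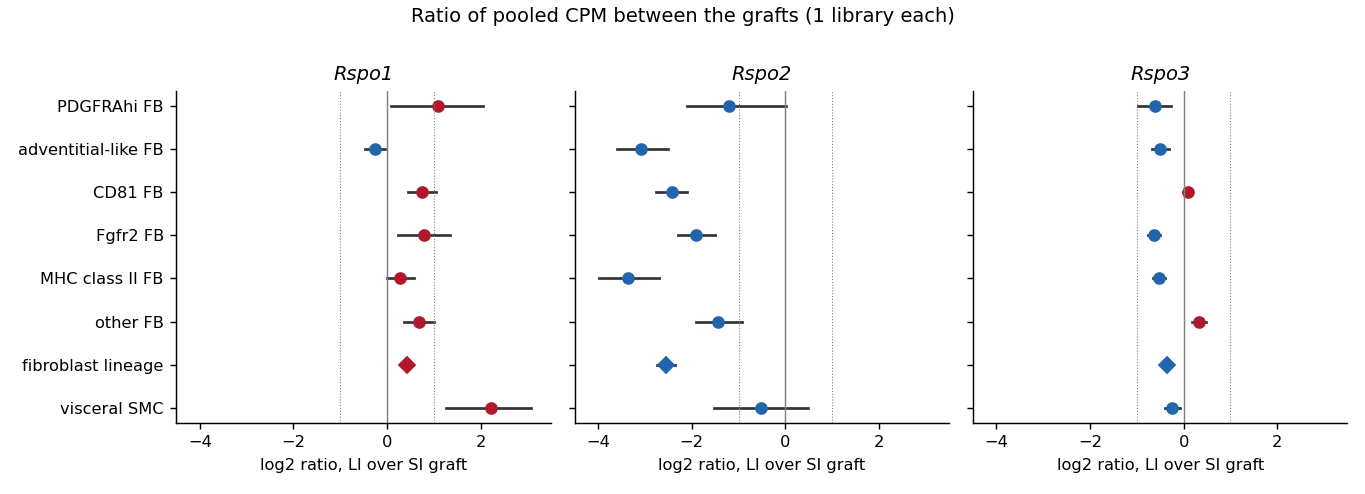
Log2 ratio of pooled CPM, LI over SI graft, for Rspo1, Rspo2 and Rspo3 in 6 FB classes, the FB lineage (diamond) and visceral SMC, with intervals from a binomial split of UMIs and dotted lines at 2-fold. The Rspo2 ratio is below 0 in each class shown, with intervals that reach above 0 in PDGFRAhi FB and visceral SMC, while Rspo1 and Rspo3 lie on both sides of 0.

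Rspo1 and Rspo3 differed less between the grafts, and their direction depended on the class. Rspo1 was higher in LI over the FB lineage, 24.9 against 18.2 CPM and a log2 ratio of 0.43 (0.31 to 0.56), short of 2-fold. It was 0.75 in CD81 FB, where few cells carried the UMIs, 0.79 in Fgfr2 FB and 1.09 in PDGFRAhi FB (21 against 7 UMIs), but -0.26 (-0.47 to -0.04) in adventitial-like FB. These FB were uneven in both grafts. In LI, 39.9% lay in the Myoc cluster at 84.9 CPM (74.2 to 96.6) and 17.9% in the Cthrc1 cluster at 38.3 CPM. In SI, 66.6% lay in the Pi16 cluster at 75.8 CPM (66.3 to 86.3) and 21.7% in the Pcolce2 cluster at 10.2 CPM. The part of this makeup in the ratio was not tested. Rspo1 stayed under 10 CPM in Fgfr2 FB (6.54 and 3.36 CPM) and in PDGFRAhi FB, outside the genes with at least 10 CPM that the next shares cover. The share of genes at least 2-fold higher in LI was 3.48% in PDGFRAhi FB, 3.01% in adventitial-like FB, 2.2% in CD81 FB, 2.3% in Fgfr2 FB, 5.02% in MHC class II FB and 1.7% in other FB. In visceral SMC the ratio of Rspo1 was 2.22 (1.26 to 3.07), where 2.48% of genes were at least 2-fold higher in LI, and 1.46 (0.41 to 2.39) without the 1 cell with 14 UMIs. The 76.4% of LI visceral SMC in the cluster led by Cnn1 held 2 of the 31 UMIs, at 1.07 CPM (0.13 to 3.87). The 55.6% of SI ones in the cluster led by Npnt held 1.85 CPM (0.38 to 5.39), so cells outside the main LI cluster carried the ratio.

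Rspo3 was lower in LI over the FB lineage, 101 against 129 CPM and a log2 ratio of -0.35 (-0.41 to -0.30). No FB class reached 2-fold. Ratios were -0.63 in Fgfr2 FB, -0.62 in PDGFRAhi FB, -0.52 in MHC class II FB and -0.50 in adventitial-like FB, but 0.32 (0.17 to 0.47) in other FB. In PDGFRAhi FB 24 cells in the Areg cluster gave 41 of the 115 LI UMIs and so brought the ratio nearer to 0, while the cells in clusters led by Sox6 (75.1% of the class in LI and 67.6% in SI) held 4.05 CPM (1.94 to 7.45) against 45.0 CPM (35.7 to 55.9). Female PDGFRAhi FB held 17.7 CPM in LI and 51.5 CPM in SI, past 2-fold, and male ones 98.3 and 37.2 CPM, the other way. The male values rest on 21 UMIs in 37 LI cells (60.8 to 150 CPM) and 32 UMIs in 118 SI cells (25.4 to 52.5 CPM). The direction also turned by sex in Fgfr2 FB, with 72.6 CPM in LI and 141 CPM in SI for female cells but 195 and 115 CPM for male cells (35 in LI). In other FB it was 82.7 against 75.1 CPM in female and 167 against 73.7 CPM in male cells, past 2-fold in the latter. In CD81 FB, a class with a crypt-base program, the ratio was 0.09 (-0.01 to 0.19), with 136 against 160.0 CPM in female and 255 against 174 CPM in male cells. Visceral SMC had -0.24 (-0.39 to -0.09), mural cells 0.18 (-0.23 to 0.59) and ICC 0.03 (-0.45 to 0.53).

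Rspo3 also differed between cells of male, female and unclear sex. In LI, male FB held 165 CPM (156 to 175) and female FB 77.3 CPM (74.6 to 80.1), and in SI they held 148 CPM (141 to 155) and 117 CPM (112 to 121). The log2 ratio of LI over SI was therefore 0.16 (0.05 to 0.26) in male and -0.59 (-0.66 to -0.51) in female FB. It was 0.50 in FB of unclear sex, which in LI (747 cells) held 187 CPM (176 to 199), above male FB with no overlap of the intervals. Male cells were 9.38% of LI and 23.4% of SI FB but 49.4% of LI MHC class II FB and 304 of the 553 SI ones. Within MHC class II FB, Rspo3 was 147 CPM in 281 male and 69.4 CPM in 112 female LI cells, and 229 CPM in 304 male and 113 CPM in 99 female SI cells. Male LI cells were also higher within CD81 FB, 255 against 136 CPM, whereas SI cells held 174 and 160.0 CPM with overlapping intervals. Male values were higher in 6 of 6 FB classes in LI, with overlapping intervals in adventitial-like FB. Visceral SMC went the other way, with 98.5 CPM (58.4 to 156) in 19 male and 226 CPM (207 to 247) in 387 female LI cells, below CD81 FB in male cells, and 235 against 288 CPM in SI with overlapping intervals. In SI, male values were lower in 3 of 6 FB classes, Fgfr2 FB (115 against 141 CPM), PDGFRAhi FB (37.2 against 51.5 CPM) and other FB (73.7 against 75.1 CPM), with overlapping intervals in each. Each sex in a library comes from an unknown number of embryos, so sex and embryo cannot be told apart.

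For Rspo2 the direction between the grafts was the same in both sexes, with a log2 ratio of -3.29 in male and -2.23 in female FB. For Rspo1 it was 0.48 and 0.28. In adventitial-like FB, Rspo1 was lower in male than in female cells of both grafts, 29.0 against 50.1 CPM in LI and 31.7 against 80.1 CPM in SI.

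Cells that held more than 1 R-spondin were counted in FB. Of 8031 LI cells, 494 held Rspo1 alone, 67 Rspo2 alone and 1921 Rspo3 alone, and 284 held Rspo1 with Rspo3, 88 Rspo2 with Rspo3, 2 Rspo1 with Rspo2 and 8 all 3. Of 5773 SI cells, 234 held Rspo1 alone, 236 Rspo2 alone and 1666 Rspo3 alone, and 128 held Rspo1 with Rspo3, 454 Rspo2 with Rspo3, 5 Rspo1 with Rspo2 and 26 all 3. Rspo1 and Rspo2 thus met in few cells, and most cells with Rspo2 in either graft also held Rspo3. Deeper cells hold more of every gene, so the shares below are the expectation after thinning each cell to 2000 UMIs, which left out 444 LI and 322 SI FB.

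Rspo3 was found more often beside Rspo2. In SI, 32.5% (26.5 to 38.7) of FB with Rspo2 held Rspo3, against 18.6% (17.6 to 19.7) of FB without Rspo2. In LI the shares were 28.3% (17.0 to 41.5) and 14.3% (13.6 to 15.2), from 57 positive cells. The intervals did not overlap in either graft. Within a class most did. In SI CD81 FB the shares were 32.1% (23.9 to 40.6) and 24.1% (21.9 to 26.3), in LI CD81 FB 24.1% and 24.9%, and in SI MHC class II FB 41.2% and 29.4% with overlapping intervals. In SI Fgfr2 FB they were 35.4% (22.2 to 50.5) and 19.4% (17.1 to 21.8), which did not overlap.

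Few cells held Rspo1 and Rspo2 together after thinning. In SI, 1.69% (0.40 to 5.59) of the 154 FB with Rspo1 held Rspo2, against 4.45% of those without it, and in LI 0.256% (0.00888 to 1.94) of 285 held it, against 0.767%. These rest on 3 and 1 expected cells and their intervals overlap. Rspo3 was held by 12.7% (8.12 to 19.3) of SI FB with Rspo1 and 19.4% of those without it, and by 17.4% (13.0 to 22.1) and 14.3% in LI, with overlapping intervals in both grafts.

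**Figure D4:**
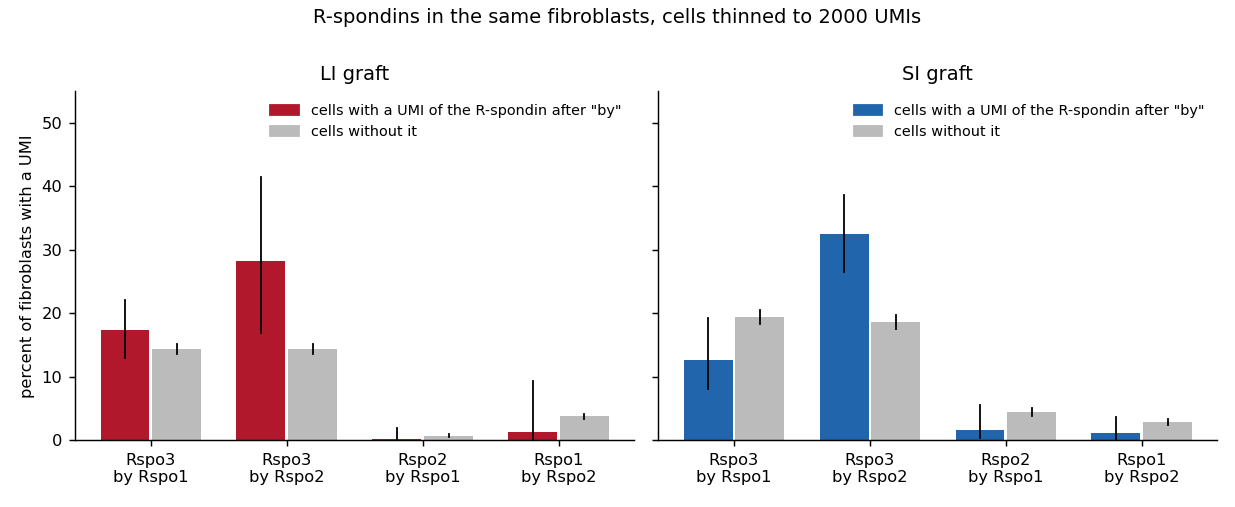
Percent of FB-lineage cells with a UMI of 1 R-spondin, in cells with (coloured) and without (grey) a UMI of another, as the expectation over thinning to 2000 UMIs, with exact binomial 95% intervals. Rspo3 by Rspo2 stands at 28.3% against 14.3% in LI and 32.5% against 18.6% in SI, and Rspo2 by Rspo1 is 1.69% or less.

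Unsupervised clusters of each library, 20 of at least 50 cells in each, placed the highest levels of Rspo1 and Rspo2 in different clusters. R-spondins were not among the genes used to build them. In SI, the cluster led by Pcolce2, Stmn4 and Cpz held Rspo2 at 70.5 CPM (64.4 to 77.0) and Rspo1 at 5.38 CPM (3.81 to 7.38). The cluster led by Pi16, Igfbp6 and Epyc held Rspo1 at 79.6 CPM (72.1 to 87.7) and Rspo2 at 4.44 CPM (2.82 to 6.67). Their Rspo3 levels were 172 and 74.4 CPM. Over all 20 clusters of a library, which share depth and library, Rspo1 and Rspo2 correlated weakly, with r = -0.22 and rho = -0.23 in LI and r = 0.17 and rho = 0.27 in SI.

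SI MHC class II FB, which held both genes, spread over clusters that differed in them. Its cells in the cluster led by Cd74 and Saa3 (53.0% of the class) held Rspo1 at 6.09 CPM (3.48 to 9.90) and Rspo2 at 48.4 CPM. Its cells in the cluster led by Angptl7, Ctla2a and Upk3b (15.9%) held Rspo1 at 115 CPM (95.7 to 137) and Rspo2 at 3.62 CPM from 4 UMIs. SI adventitial-like FB likewise split into cells of the Pi16 cluster (66.6%) with Rspo1 at 75.8 CPM and Rspo2 at 4.95 CPM, and cells of the Pcolce2 cluster (21.7%) with 10.2 and 50.8 CPM.

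In LI the clusters richest in Rspo1 were led by Lpl and Sned1 (86.2 CPM), by Myoc and Angptl7 (74.0 CPM), by Cthrc1 (47.9 CPM) and by Ctla2a and Fgfbp1 (36.1 CPM), and each held Rspo2 below 1 CPM. The mesothelial marker Upk3b stood among the 5 leading genes of the Angptl7 cluster of SI and of a cluster of 40 LI cells, where Rspo1 was 240 CPM and where the kidney tubule gene Slc34a1 stood beside mesothelial ones. LI Rspo2 was 11.6 CPM (9.04 to 14.5) in the cluster led by Fmo2 and Lsamp and 14.6 CPM (5.36 to 31.8) in the one led by Tff3 and Spink4. The latter value came from 6 UMIs in 1.36% of 221 cells with a median of 1586 UMIs, in a cluster that received no class name. Rspo3 reached 615 CPM (566 to 667) in a cluster of 151 LI cells led by Lcn2, Hand1 and Fst, and 290 CPM (275 to 306) in the cluster led by Areg and Ereg. In SI it was highest in clusters led by Npnt and Hhip (312 CPM) and by Actg2 and Cnn1 (303 CPM), both mostly visceral SMC.

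**Figure D5:**
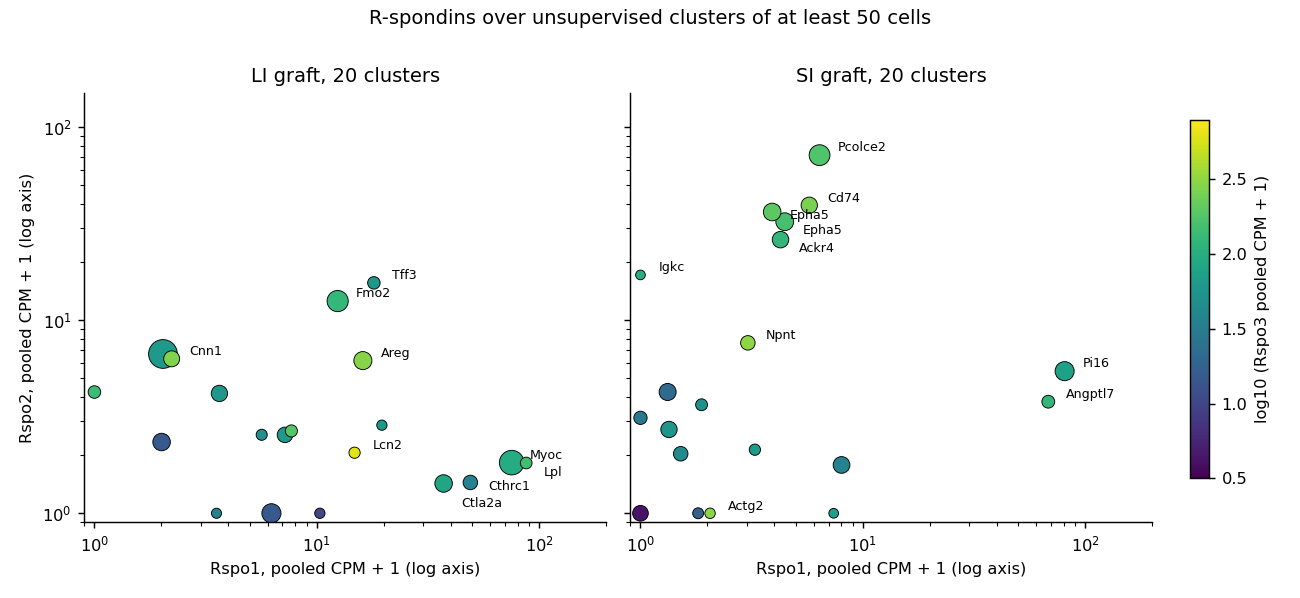
Pooled CPM plus 1 of Rspo1 (x axis) and Rspo2 (y axis), both on log axes, in clusters of at least 50 cells of the LI graft and the SI graft. Each point is 1 cluster, its size grows with its cells, its colour gives Rspo3 and its label the first leading gene, and the SI clusters highest in Rspo1 (Pi16, 79.6 CPM) and in Rspo2 (Pcolce2, 70.5 CPM) differ, while r over all clusters is -0.22 in LI and 0.17 in SI.

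The genes that receive R-spondins were then examined in the stroma itself. Of 6 receptor and ligase genes, 1 reached 10 CPM in FB-lineage cells of either graft. This was Sdc4, a heparan sulfate proteoglycan that can bind R-spondins, at 312 CPM in LI and 336 CPM in SI. Over single stromal classes, 2 of the 6 reached 10 CPM in some class of LI and 1 in SI. In FB, Lgr4, the broadly expressed receptor, held 7.38 CPM in LI and 6.15 CPM in SI. Its highest class was vascular mural cells in LI and PDGFRAhi FB in SI. The values that follow are again for FB. Lgr5, the receptor of stem cells, held 0.886 CPM (46 UMIs) and 0.234 CPM (9 UMIs), and Lgr6 0.385 and 0.467 CPM. The ligase Znrf3 held 3.83 and 4.15 CPM, and its partner Rnf43 0.0193 and 0.104 CPM. Among Wnt receptors Fzd1 held 131 and 145 CPM, Fzd2 99.3 and 112 CPM and the co-receptor Lrp6 115 and 88.4 CPM, and 6 of 12 genes of that list in LI and 7 in SI reached 10 CPM.

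Of 11 feedback and target genes of Wnt/beta-catenin signalling, 2 reached 10 CPM in FB-lineage cells, and neither differed 2-fold between the grafts. Axin2, a scaffold of the beta-catenin destruction complex, held 10.2 CPM in LI and 14.1 CPM in SI. Its highest class was other FB in LI and, in SI, PDGFRAhi FB, the FB class with the least Rspo3. Nkd1, a feedback inhibitor, held 19.2 and 25.9 CPM in FB and 123 CPM (111 to 137) and 163 CPM (150.3 to 177) in visceral SMC, the class with the most Rspo3. A link of either gene to Rspo3 was not tested.

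Factors that accompany R-spondins in the crypt niche included several with a 2-fold difference between the grafts. Of 9 niche partner genes with at least 10 CPM, 4 were at least 2-fold higher in LI FB and 1 in SI FB, with a median log2 ratio of 0.78. Against the backgrounds of 1.95% and 1.61% of genes given above, the members higher in LI included Fgf10 (41.0 against 5.84 CPM), Wnt2 (16.2 against 2.08 CPM) and Fgf7 (21.1 against 8.78 CPM). Sfrp1, a secreted Wnt antagonist, was higher in SI, 2175 against 996 CPM. The BMP antagonist Grem1 held 484 CPM in LI and 784 CPM in SI, a ratio of -0.69. Of 9 factors of the epithelial border, Nrg1, an ErbB ligand, was at least 2-fold higher in LI (31.5 against 14.0 CPM) and the Wnt inhibitor Wif1 in SI (11.9 against 4.55 CPM), with a median of -0.27 over the list.

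Within visceral SMC and 3 of the FB classes, Rspo3-positive cells held at least 2-fold more Grem1 in both grafts. In visceral SMC, Grem1 was 859 CPM in Rspo3-positive and 196 CPM in Rspo3-negative LI cells, and 1900 and 364 CPM in SI. Chrdl1, a further BMP antagonist, was 68.7 against 22.6 CPM in LI and 70.2 against 14.6 CPM in SI. They were among 3 of 24 list genes tested that were at least 2-fold higher in positive SMC of both grafts, while 0.421% of 8307 genes were. Wnt4, Nrg1, Bmp2 and Bmp5, factors of the epithelial border, were at least 2-fold lower in positive SMC of both grafts, where 1.35% of genes were. Positive SMC had medians of 5429 (LI) and 6864 UMIs (SI), and negative SMC 5208.5 and 5236. Thinned to 2000 UMIs, the log2 ratio of Grem1 was 1.42 in LI and 1.64 in SI SMC.

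Grem1 was likewise higher in Rspo3-positive Fgfr2 FB. There, Grem1 was 842 against 219 CPM in LI and 1079 against 398 CPM in SI, where 0.133% of genes were at least 2-fold higher in positive cells of both grafts. Bmp7 and Wnt4 were lower there, Wnt4 at 127 against 361 CPM in LI and 59.1 against 196 CPM in SI, with 0.206% of genes lower. Grem1 was also at least 2-fold higher in Rspo3-positive other FB (498 against 142 CPM in LI, 682 against 325 CPM in SI) and MHC class II FB (1167 against 356 CPM, 1486 against 736 CPM), where 0.0475% and 0.0386% of genes were higher and 0.107% and 0.0644% lower. In SI MHC class II FB the log2 ratio of Grem1 was 0.72, short of 2-fold, with cells thinned to 2000 UMIs, and positive cells there had a median of 9409.5 UMIs against 6448. In adventitial-like FB Wnt2, a Wnt ligand, was lower in positive cells (16.9 against 45.4 CPM in LI, 6.98 against 16.1 CPM in SI), where 0.0253% of genes were higher and 0.0633% lower. No list gene passed in CD81 FB, whose gate requires a Grem1 UMI, where 0.0371% of genes were higher and 0.0743% lower, and where Grem1 was 1543 against 866 CPM in LI and 1278 against 1123 CPM in SI.

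Of the list genes tested, 2 of 20 in CD81 FB and 3 of 24 in Fgfr2 FB were at least 2-fold lower in Rspo2-positive cells of both grafts. In CD81 FB, Wnt4 was 10.3 against 31.7 CPM in LI and 3.29 against 18.7 CPM in SI, and Wnt5a 14.5 against 37.4 CPM and 19.7 against 67.0 CPM, where 0.939% of genes were at least 2-fold lower in positive cells of both grafts. In Fgfr2 FB, Bmp7, Wnt4 and Nrg1 were lower (0.372% of genes). Rspo2-positive cells of LI were only 60 CD81 FB and 53 Fgfr2 FB, so low CPM values there rest on few UMIs. No list gene was at least 2-fold higher with Rspo2 in either class, where 0.0494% (CD81 FB) and 0.168% (Fgfr2 FB) of all genes were.

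Rspo1-positive cells of adventitial-like, CD81 and MHC class II FB had no list gene past 2-fold in both grafts. The shares of all genes higher and lower were 0.114% and 0.127% in adventitial-like FB, 0.499% and 0.207% in CD81 FB, and 0.181% and 0.336% in MHC class II FB. In other FB, the Wnt receptor Fzd4 was higher in Rspo1-positive cells, 61.6 against 28.6 CPM in LI and 47.5 against 15.8 CPM in SI, with 1.31% of genes higher. Bmp4, Bmp5 and Bmp7 were lower there, Bmp4 at 121 against 315 CPM and 57.5 against 195 CPM, with 1.91% of genes lower.

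The genes whose levels over 18 class profiles, 9 classes of at least 50 cells in each library, most resembled each R-spondin were named by Pearson correlation of log2(CPM + 1) among 4592 genes, as a description. Classes of 1 library share depth and library. Rspo1 was followed by Igfbp6 (r = 0.970), Wt1 (0.960), Lbp (0.958), Fmo1 (0.955) and Plod2 (0.952), all highest in adventitial-like FB of both grafts. Rspo3 was followed by Grem1 (0.925), a gene that the CD81 FB gate requires, Clip4 (0.897), Foxp2 (0.879), Colec12 (0.864) and Sqrdl (0.857). Rspo2 stayed below 10 CPM in LI, so its profile was taken over the 9 SI classes alone, a choice made after its values were seen. There it was followed by Dapk1 (0.988), Sat1 (0.974), Lsamp (0.971), Mmp16 (0.969) and Gm266 (0.968).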

How the data were processed

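Single-cell RNA-seq was analysed from 1 LI and 1 SI graft library. Per the file headers and labels, the authors aligned reads to mm10 with CellRanger (3.1.0) and deposited raw UMI counts per gene and barcode, whole numbers with no normalization. Seurat 3 is also listed in the submitters' processing notes. No cell type annotation from the study was used.

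Cells were kept from 500 genes upward and up to 10% mitochondrial UMIs. Each cell was put in a class by how many of a class's markers it held and by their UMIs per 10000. All FB held 6 or more of 10 pan-fibroblast markers, and adventitial-like FB also had to hold a UMI of Pi16, Fgfr2 FB of Adamdec1 and CD81 FB of Grem1. The limits of these gates were set after the data had been seen. Scrublet's own threshold called 0 and 1 barcodes as doublets, so none were removed in the main analysis, and an alternative removed the 1071 LI and 742 SI barcodes with the highest scores (0.8% per 1000 barcodes). Clusters (21 in LI, 23 in SI) were made per library with scanpy 1.11.5 from 2000 variable genes without R-spondins, 30 components, 20 neighbours and a resolution of 1. Male cells held a UMI of a Y-linked gene and no Xist, and female cells the reverse.

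CPM carry exact Poisson intervals, shares exact Clopper-Pearson intervals (scipy 1.17.1), and log2 ratios, with a pseudocount of 1 CPM, intervals from the exact binomial share of LI among a gene's UMIs. With 1 library per group no p-value was computed, and a fold of 2 among genes with at least 10 CPM in either group served as the call for backgrounds. A count of 0 is given the limit of 3 counts. Thinned shares are expectations over all draws of 2000 UMIs from a cell, with intervals at the counts rounded to whole cells, and the thinned Grem1 ratios pool 10 draws. The ratio script was tested on simulated counts. TMM factors came from edgeR 4.0.16. Coordinates are from GENCODE annotation of GRCm38.

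Named genes were the 4 R-spondins, the 46 genes of 5 pathway lists and, for each R-spondin with at least 10 CPM in some class of both libraries, the 5 genes with the most similar profile among those with at least 50 CPM in some class. Rspo2 did not reach 10 CPM in LI, and the 5 genes named for it, over SI classes only, were added outside this rule. Leading genes of clusters and classes are named as labels only. The R-spondins, the lists and the markers were chosen with earlier results of these data known. The annotation release behind the counts was not given in the sources used here. Protein and promoter sequences were not used here. Some genes of the lists are not reported here.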

Additional observations from a re-analysis of the deposited data

Results flagged for a closer look

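The ratio of LI over SI changed direction between groups of cells for Rspo1 and Rspo3, with intervals on opposite sides of 0, and in none of these cases was the difference itself tested, because each graft is 1 library. For Rspo1 the log2 ratio was 2.22 in visceral SMC and -0.26 in adventitial-like FB. The largest clusters of adventitial-like FB held 84.9 CPM in LI (Myoc) and 75.8 CPM in SI (Pi16), with overlapping intervals. The SMC value rests on 31 LI UMIs in 9 cells and 6 SI UMIs in 5 cells and was 1.46 without the LI cell with 14 UMIs. Of these, 2 LI UMIs (1.07 CPM) lay in the Cnn1 cluster, which holds 76.4% of LI SMC, against 1.85 CPM in the largest SI cluster of SMC. For Rspo3 the log2 ratio was 0.32 in other FB and -0.63 in Fgfr2 FB, where male cells went the other way (195 CPM in LI and 115 CPM in SI). In other FB it was 0.14 (-0.04 to 0.32) in female and 1.17 (0.79 to 1.56) in male cells, 112 of them in LI. Fgfr2 FB spread over unlike clusters, with 57.6% of the LI cells in 1 cluster at 59.0 CPM. In SI, 18.1% lay in a cluster at 193 CPM and 17.1% in a cluster at 31.7 CPM. Over FB-lineage cells, Rspo3 had a log2 ratio of 0.16 in male and -0.59 in female cells. Male LI FB were 753 cells, of which 281 were MHC class II FB and 206 CD81 FB, the FB classes with the highest Rspo3 level in LI. The part of this makeup in the male value was not tested.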

How the results depend on the processing

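Results were recomputed under 91 combinations of result and setting, and 67 of them left the value within its counting interval or, for counts, within 1.5-fold. The log2 ratio of Rspo2 in FB-lineage cells stayed below -1 in all settings (-3.29 to -1.84): -2.23 in female cells, -3.29 in male cells, -1.84 with a pseudocount of 5 CPM and -2.34 in cells thinned to 2000 UMIs. That of Rspo1 stayed above 0 (0.28 in female cells). That of Rspo3 was -0.48 with clusters in place of gates and -0.59 in female cells, and turned to 0.16 in male cells, the cause of which was not tested. TMM scaling changed no direction. The class with the highest level was the same for all 6 pairs of R-spondin and library under 6 settings, for 5 with the stricter cell filter, where LI Rspo3 was highest in ICC, and for 3 with clusters and 3 in male cells only. No cluster was named CD81 FB, so both shifts of Rspo2 with clusters were fixed by the naming. The cause of the shifts in male cells was not tested. Thinning to 1000 UMIs lowered the shares of Rspo1-positive FB with Rspo3 to 9.95% (LI) and 6.71% (SI) and of Rspo2-positive FB to 15.8% and 18.6%, as fewer UMIs per cell must. Of the 5 genes most like Rspo3, 2 remained under Spearman correlation. Alternatives chosen after seeing the data (cells thinned or highest doublet scores removed for Grem1, 1 cell left out for Rspo1 in SMC) changed no direction. No paired analysis was possible because each group holds 1 library. Low counts limit Rspo2 in LI, and Rspo1 and Rspo2 in SMC, mural cells and SI ICC.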
